A study of Mus musculus with 48 samples.

Results

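The genes described here are 10 markers of oligodendrocyte-lineage cells and astroglia, the glia of neural origin, in mouse cerebellum: Pdgfra, Olig1, Olig2, Fa2h, Sox9, Gja1, Aldoc, Slc4a4, Hopx and Apoc1. They were chosen by name, and every row with one of these names in the 4 deposited gene tables was taken. The tables together hold 6143 genes and list only those with an adjusted p-value under 0.05 in the authors' own comparison. The cKO against WT table lists 8 of the 10 markers, the rotarod against rest table lists 1, the table of ribosome pull-downs from cKO against WT lists 0, and the table of WT pull-down against WT input lists 2. A marker that a table does not list has no value there, so its level in those libraries is not known here.

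The series holds 48 samples of mouse cerebellum, of which the 20 chromatin samples were not analysed here. Whole-cerebellum mRNA was sequenced at postnatal days 27 to 28 in 4 samples labelled Chd4 conditional knockout (cKO) and 4 labelled wild type (WT), and in 4 samples after rotarod training and 4 from the home cage at rest, all labelled WT. The rotarod is a rotating rod on which mice learn to keep their balance. Sync-TRAP libraries at postnatal day 12 came from cerebella electroporated 6 days before: immunoprecipitated (IP) RNA of 3 cKO and 3 WT samples, and the unprecipitated input RNA of 3 WT samples. The 3 input samples of the cKO were not analysed here. Chd4 is an ATPase that remodels nucleosomes. The sources used here give neither the Cre line behind the cKO nor the deleted part of Chd4, so the cells that lost Chd4 cannot be named from the labels. Chd4 itself fell to 7.94 ± 0.08 log2 CPM in the cKO libraries, against 8.38 ± 0.06 in the WT libraries (SD, n = 4 each), a log2 difference of -0.44 ± 0.06 (SE; limma, adjusted p = 0.00199). Chd4 mRNA in the cKO was thus 26.1% below WT. The effective depth was 13.7 to 16.7 M reads in the mRNA libraries and 23.0 to 27.1 M in the IP libraries. It was recovered from the step size of low CPM values and need not equal the reads a library held. Markers of the cerebellum's own neurons, such as Gabra6, Pcp2 and Calb1, were listed in the cKO table with reads in every library.

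Oligodendrocytes make the myelin of the cerebellar white matter. They arise from precursors that divide in response to platelet-derived growth factor (PDGF), which binds the receptor encoded by Pdgfra. The transcription factors Olig2 and Olig1 set and mature this lineage, and Fa2h encodes the fatty acid 2-hydroxylase that makes the hydroxylated galactolipids of myelin. The astroglia of the cerebellum are the Bergmann glia, whose fibres run along Purkinje cell dendrites, and the astrocytes of the granular layer and white matter. The transcription factor Sox9 marks them. Gja1 encodes connexin 43, the main gap junction protein of astrocytes, Slc4a4 a sodium bicarbonate cotransporter, and Hopx a small homeodomain protein found in Bergmann glia. Aldoc encodes the glycolytic enzyme aldolase C, also known as zebrin II, which is made by astroglia and by a part of the Purkinje cells. Apoc1 encodes apolipoprotein C-I, a lipoprotein component of glia and macrophages. In the reference annotation Apoc1 lies next to Apoe on chromosome 7, and Olig1 and Olig2 lie on chromosome 16 with 1 predicted gene between them. Pdgfra is made by meningeal fibroblasts too, so it is read here beside meningeal markers.

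The RefSeq promoter table (build GRCm38.p6, 250 bases before to 50 after the annotated start) held 6 of the 10 markers. The promoters of 4 of those whose mRNA was lower in the cKO are shown, 1 pair for the oligodendrocyte lineage and 1 pair for the astroglia, to compare the base make-up of genes listed in the same direction. Capitals mark the E-box CANNTG, the general motif of basic helix-loop-helix factors such as Olig2, and TATAAA, both searched on both strands. All 4 sequences lie on the plus strand, at chr5:75152001-75152300 for Pdgfra, chr16:91225300-91225599 for Olig2, chr10:56377050-56377349 for Gja1 and chr11:78322823-78323122 for the first of 2 annotated starts of Aldoc.
Pdgfra: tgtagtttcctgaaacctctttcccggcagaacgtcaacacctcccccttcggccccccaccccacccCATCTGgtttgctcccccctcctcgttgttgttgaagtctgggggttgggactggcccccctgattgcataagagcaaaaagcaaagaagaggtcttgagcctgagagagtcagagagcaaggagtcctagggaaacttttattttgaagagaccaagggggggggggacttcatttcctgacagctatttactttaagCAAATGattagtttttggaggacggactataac
Olig2: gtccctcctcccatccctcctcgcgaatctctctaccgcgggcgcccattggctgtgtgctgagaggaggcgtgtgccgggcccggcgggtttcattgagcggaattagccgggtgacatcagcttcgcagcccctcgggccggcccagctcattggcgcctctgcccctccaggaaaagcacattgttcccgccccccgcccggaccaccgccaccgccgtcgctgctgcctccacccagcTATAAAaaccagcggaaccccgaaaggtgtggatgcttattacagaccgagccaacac
Gja1: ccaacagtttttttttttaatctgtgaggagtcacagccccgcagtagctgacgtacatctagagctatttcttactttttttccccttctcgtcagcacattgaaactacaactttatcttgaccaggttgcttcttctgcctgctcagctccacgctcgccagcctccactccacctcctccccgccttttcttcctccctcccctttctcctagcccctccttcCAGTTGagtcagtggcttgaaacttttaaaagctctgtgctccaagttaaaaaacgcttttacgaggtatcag
Aldoc: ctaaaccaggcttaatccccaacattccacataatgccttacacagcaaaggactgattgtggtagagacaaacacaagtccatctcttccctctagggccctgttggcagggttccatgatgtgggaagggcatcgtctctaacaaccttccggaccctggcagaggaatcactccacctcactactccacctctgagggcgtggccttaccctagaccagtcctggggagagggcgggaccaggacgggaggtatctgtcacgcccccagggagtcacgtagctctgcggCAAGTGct

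The Pdgfra window held 2 E-boxes, the Gja1 and Aldoc windows 1 each and the Olig2 window 0, where 72.3% of all 32851 promoters in the table held at least 1. The Olig2 window was the only one of the 4 with TATAAA, which 13.6% of all promoters held, and it was the richest in G and C, at 65% against 51% for Pdgfra, 47.7% for Gja1 and 56.3% for Aldoc. It also held 25 CG dinucleotides, against 5 for Pdgfra and 8 each for Gja1 and Aldoc, where the median promoter held 7. No motif of those searched was in all 4 windows. The absence of a match says only that these letters are not in this window.

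All 8 markers listed in the cKO table were lower in cKO cerebellum than in WT cerebellum, by 13.9% to 24.7%. Of these, 5 fell past the threshold of limma, a moderated linear model run here on the deposited log2 CPM (adjusted p at most 0.05): Pdgfra and Olig1 of the oligodendrocyte lineage and Gja1, Aldoc and Slc4a4 of the astroglia. Olig2, Fa2h and Sox9 were lower in the authors' deposited table but missed it. The authors' table called 9.29% of the about 27100 features tested lower and 20.3% in either direction, and limma put 5.04% past the threshold as lower and 8.17% as higher. As limma was run on listed genes alone, only these could pass: 1365 passed as lower, beside 2518 listed as lower. The markers and lists were chosen with results of these data known, so the share of markers called supports nothing. The median log2 difference of the 8 markers was -0.35, beside -0.32 for all 2518 genes called lower and 0.21 for all 5508 genes of the table. Of these lower genes, 782 had a larger difference than Sox9 and 2033 a larger one than Slc4a4, the ends of the range of the markers. In bulk tissue, fewer cells of a type and less RNA per cell cannot be told apart.

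**Figure D1:**
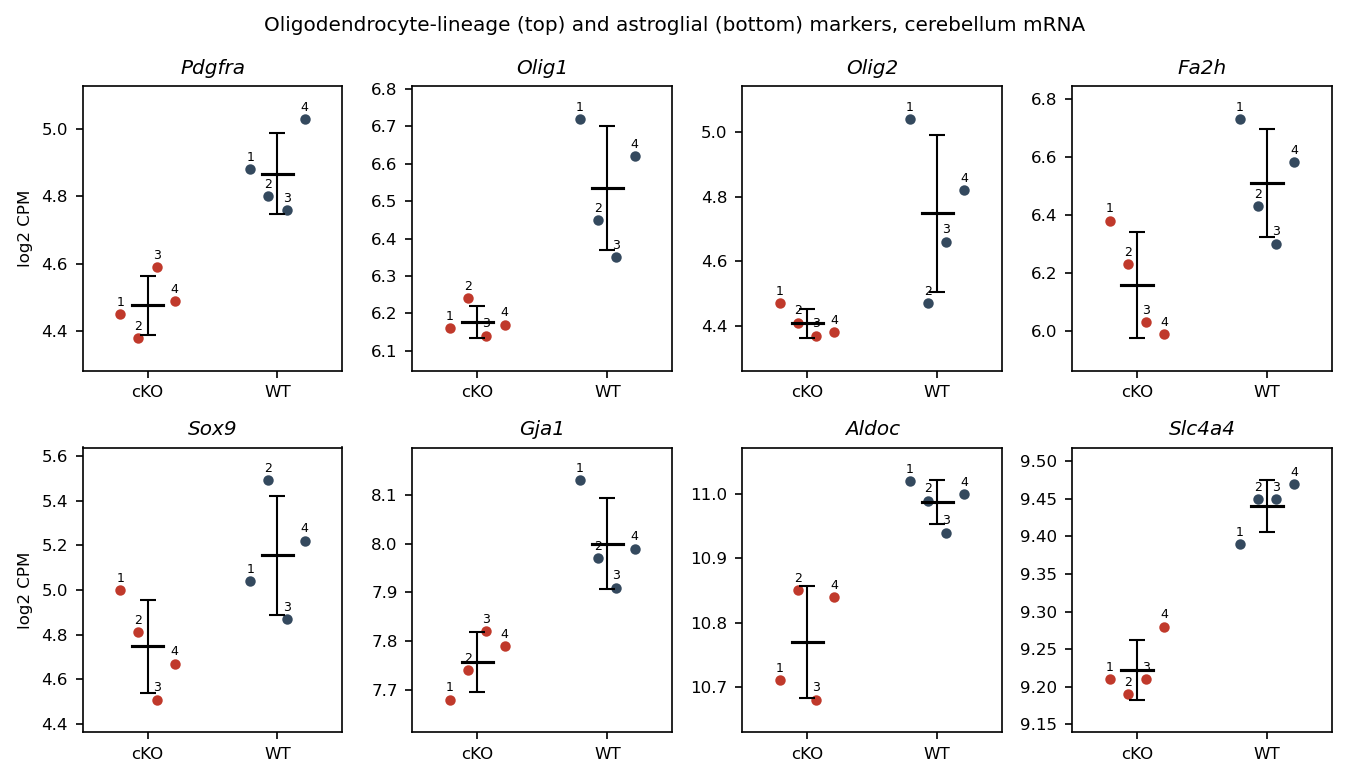
Level (log2 CPM, y axis, a separate range for each gene) of the 8 listed markers in the 4 cKO and 4 WT mRNA libraries, numbered as in their labels, with the mean (bar) and SD (error bar). The cKO points lie below all WT points for Pdgfra, Olig1, Gja1, Aldoc and Slc4a4, and the groups touch or overlap for Olig2, Fa2h and Sox9.

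Pdgfra, the PDGF receptor of oligodendrocyte precursors, had 4.45, 4.38, 4.59 and 4.49 log2 CPM in cKO libraries 1 to 4, against 4.88, 4.80, 4.76 and 5.03 in WT libraries 1 to 4. The highest cKO library lay below the lowest WT library. The log2 difference was -0.39 ± 0.08 (SE, n = 4 each; limma, adjusted p = 0.0116), or 22.2 CPM in cKO against 29.1 CPM in WT on average, from 299 to 479 reads per library. The call held without any single library (adjusted p 0.0159 to 0.0353), which held for no other marker.

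Olig1 had 6.16, 6.24, 6.14 and 6.17 log2 CPM in cKO libraries 1 to 4, against 6.72, 6.45, 6.35 and 6.62 in WT libraries 1 to 4. The cKO libraries were close together (SD 0.04) and all lay below the WT libraries, which were spread more widely (SD 0.17). The log2 difference was -0.36 ± 0.08 (limma, adjusted p = 0.0266). Without WT library 4, or without any 1 of the 4 cKO libraries, it missed the threshold, with adjusted p-values up to 0.0789.

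Olig2 had 4.47, 4.41, 4.37 and 4.38 log2 CPM in cKO libraries 1 to 4, against 5.04, 4.47, 4.66 and 4.82 in WT libraries 1 to 4. WT library 2 was level with cKO library 1, and the other 3 WT libraries lay above every cKO library. The log2 difference was -0.34 ± 0.11 (limma, adjusted p = 0.0985; authors' deposited table, adjusted p = 0.00039). Without WT library 2 it was -0.44, past the threshold at an adjusted p of 0.0269. Fa2h had 6.38, 6.23, 6.03 and 5.99 log2 CPM in cKO libraries 1 to 4, against 6.73, 6.43, 6.30 and 6.58 in WT libraries 1 to 4. Its cKO library 1 lay above WT library 3. The log2 difference was -0.35 ± 0.12 (limma, adjusted p = 0.105; authors' deposited table, adjusted p = 3.64e-06).

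The 4 oligodendrocyte-lineage markers differed among the WT libraries in a shared way: WT libraries 1 and 4 were the highest of the 8 libraries for each of them. Across the fixed lists, the 7 listed precursor genes summed to 251, 251, 254 and 250 CPM in cKO libraries 1 to 4 and to 346, 303, 297 and 346 CPM in WT libraries 1 to 4. Such sums run over genes that the table lists because they were called different, so a gap between the groups in them is no further support. WT libraries 1 and 4 also had more of the listed meningeal genes (388 and 426 CPM, against 327 and 330 CPM in WT libraries 2 and 3) and of the 3 listed choroid plexus genes (35.9 and 31.4 CPM, against 17.5 and 17.8 CPM). The part of these tissues in the glial results was not tested. With WT libraries 1 and 4 left out, a choice made after seeing the data, Olig1 differed by -0.22, Olig2 by -0.16, Fa2h by -0.21 and Pdgfra by -0.30 on the log2 scale. Gja1 differed by -0.18, Aldoc by -0.20, Slc4a4 by -0.23 and Sox9 by -0.43. All 8 stayed lower in the cKO, and 0 of 8 passed limma with 2 WT libraries remaining. Olig1, Olig2 and Fa2h thus moved by over 1.5 times, while Pdgfra moved by less, as did Gja1 and the other 3 astroglial markers.

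Sox9, the transcription factor of astroglia, had 5.0, 4.81, 4.51 and 4.67 log2 CPM in cKO libraries 1 to 4, against 5.04, 5.49, 4.87 and 5.22 in WT libraries 1 to 4. It had the widest spread of the 8 markers, and cKO library 1 lay above WT library 3. Its log2 difference of -0.41 ± 0.15 was the largest of the 8 in size and missed the threshold (limma, adjusted p = 0.146; authors' deposited table, adjusted p = 0.000186).

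Gja1 had 7.68, 7.74, 7.82 and 7.79 log2 CPM in cKO libraries 1 to 4, against 8.13, 7.97, 7.91 and 7.99 in WT libraries 1 to 4. The groups did not overlap, and the log2 difference was -0.24 ± 0.06 (limma, adjusted p = 0.0405). Aldoc had 10.71, 10.85, 10.68 and 10.84 log2 CPM in cKO libraries 1 to 4, against 11.02, 10.99, 10.94 and 11.00 in WT libraries 1 to 4. Its cKO libraries formed a lower pair and a higher pair, both under the WT libraries, and the log2 difference was -0.22 ± 0.06 (limma, adjusted p = 0.0388). Gja1 passed the threshold without WT library 3 and missed it without each of the other 7 libraries (adjusted p 0.0621 to 0.105). Aldoc passed it without cKO library 2 and missed it without each of the other 7 (0.0526 to 0.102).

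Slc4a4 had 9.21, 9.19, 9.21 and 9.28 log2 CPM in cKO libraries 1 to 4, against 9.39, 9.45, 9.45 and 9.47 in WT libraries 1 to 4. Both groups were tight (SD 0.04 each) and did not overlap. The log2 difference was -0.22 ± 0.05 (limma, adjusted p = 0.0165). It missed the threshold without cKO library 2 (0.0516) and without WT library 4 (0.0546). Slc4a4 had 8110 to 10892 reads and Aldoc 22774 to 31045 reads per library. In 5 of the 8 markers all cKO libraries lay below all WT libraries, as in 72.6% of the 2518 genes that the table lists as lower. Each of those 5 had an exact two-sided permutation p of 0.0286, the smallest that 4 against 4 libraries can give. That p is unadjusted and follows from the lack of overlap, so it is no further support.

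The wider lists of glial genes were lower in the cKO wherever they were listed. Of 54 genes in the precursor, myelin and astroglial lists together, 26 were listed, 26 were lower, 0 were higher and 10 passed limma, with a median log2 difference of -0.25. The listed share was 48.1%, beside 20.3% of all features called and 9.29% called lower. In the 8 lists of other cell types the listed share ran from 8.33% (microglia) to 75% (Purkinje cell). The marker genes themselves are 8 of the 26.

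Of 12 precursor genes, 7 were listed and 4 fell past the limma threshold: Pdgfra, Olig1, Gpr17 and Vcan. Gpr17, a receptor of precursors that are committed to mature, differed by -0.48 ± 0.10 on the log2 scale (limma, adjusted p = 0.0158). Vcan, the proteoglycan versican, differed by -0.25 ± 0.06 (adjusted p = 0.037). Sox10, the transcription factor of the whole lineage, was at -0.33 ± 0.12 (0.127) and the growth factor Bmp4 at -0.54 ± 0.25 (0.31), both short of the threshold. Nkx2-2, Cspg4, Neu4, Lhfpl3 and Enpp6 were not listed.

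Of 18 genes of mature oligodendrocytes and myelin, 9 were listed as lower in the authors' deposited table and 0 passed limma, with a median of -0.23. The myelin proteins Mbp, Mobp and Mag were at -0.23 ± 0.10, -0.21 ± 0.09 and -0.19 ± 0.11 (limma, adjusted p 0.259, 0.206 and 0.51). Myrf, the transcription factor that switches on myelin genes, was at -0.33 ± 0.11 (0.0985). Gal3st1, which sulphates galactocerebroside to sulphatide and acts in the same lipid pathway as Fa2h, was at -0.24 ± 0.11 (0.29). Mog, Cnp and Ugt8a, among the other 9, were not listed. The 9 listed genes summed to 5084 to 5400 CPM in the cKO libraries and to 5185 to 6947 CPM in the WT libraries, so the groups overlapped. Without WT libraries 1 and 4 their median was -0.09.

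Of 24 genes of astrocytes and Bergmann glia, 10 were listed, all lower, and 6 fell past the limma threshold, with a median of -0.23. Beside Gja1, Aldoc and Slc4a4 these included Hepacam, an adhesion protein of astrocyte junctions, at -0.29 ± 0.08 (limma, adjusted p = 0.0429), and Clu, the secreted lipid-binding protein clusterin, at -0.29 ± 0.08 (0.0455). Slc1a3, the glutamate transporter of Bergmann glia, was at -0.16 ± 0.05 (0.0673), Atp1b2 at -0.21 ± 0.07 (0.0985) and Ntsr2 at -0.24 ± 0.15 (0.688). Gfap, Aqp4, S100b, Slc1a2, Gdf10 and Hopx were among the 14 genes not listed. The 10 listed genes summed to 6971 to 7446 CPM in the cKO libraries and to 8092 to 8599 CPM in the WT libraries, and these ranges did not overlap. All 10 were listed because they were called lower, so this gap is no further support. Without WT libraries 1 and 4 the median was -0.21 and 0 of the 10 genes passed limma.

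**Figure D2:**
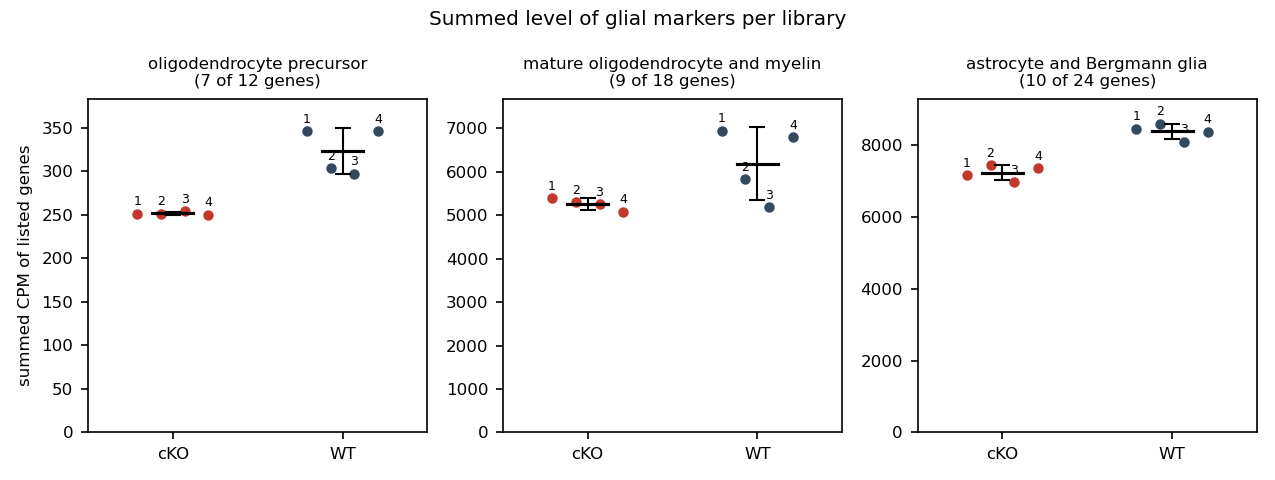
Summed CPM (y axis, from 0) of the listed genes of the 3 glial lists in each cKO and WT mRNA library, with the mean (bar) and SD (error bar). The precursor and astroglial sums of every cKO library lie below every WT library, and the myelin sums overlap because WT library 3 lies among the cKO libraries.

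In the pathways around the markers, the PDGF list had 3 of 6 genes listed, and all 3 fell past the limma threshold. Pdgfa, the ligand of the Pdgfra receptor, had the largest difference, at -0.96 ± 0.10 (limma, adjusted p = 0.000376), against -0.39 for Pdgfra. Pdgfrb, the receptor of pericytes, differed by -0.35 ± 0.07 (0.012). Of 5 SoxE and SoxD factors, 4 were listed, all lower and 0 past limma: Sox9 and Sox10 as above, Sox6 at -0.29 ± 0.09 (0.0851) and Sox8 at -0.20 ± 0.07 (0.149). Of 8 genes of galactolipid metabolism, Fa2h and Gal3st1 were listed.

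Of 10 connexins, 4 were listed and 1, Gja1, passed limma. Gjc3 and Gjb1, connexins of oligodendrocytes, were at -0.27 ± 0.07 (limma, adjusted p = 0.0502) and -0.28 ± 0.12 (0.226), and Gjc1 was at 0.27 ± 0.08 (0.0791). Of 16 glycolytic enzymes, 5 were listed, all past limma, in both directions. Aldoc and the phosphofructokinase of muscle type Pfkm fell (-0.22 and -0.27), while Pfkp, Pfkl and lactate dehydrogenase A, Ldha, rose (0.33, 0.25 and 0.28).

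Of 14 bicarbonate transporters and carbonic anhydrases, 9 were listed, with 2 higher and 3 lower past limma. Slc4a4, Car8 (-0.18) and Car11 (-0.59) fell, while Slc4a8 (0.23) and Slc4a1 (1.01), the anion exchanger of red blood cells, rose. Of 12 apolipoprotein and lipid efflux genes, 5 were listed, all lower. Lpl, lipoprotein lipase (-1.10 ± 0.29), the sterol exporter Abcg1 (-0.34 ± 0.08), Lrp1, a receptor of apolipoprotein E (-0.26 ± 0.07), and Clu passed limma, with adjusted p-values of 0.0439, 0.0266, 0.041 and 0.0455. Abca1 (-0.27 ± 0.10) did not. Lpl was at a low level, with 0.516 to 1.02 CPM in the cKO libraries and 1.09 to 3.03 CPM in the WT libraries. Neither Apoc1 nor its neighbour Apoe was listed.

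Markers of other cell types moved in the same comparison. All listed genes were lower in 5 of 8 other lists. Of the 12 Purkinje cell genes, 9 were listed as lower and 5 fell past the limma threshold, with a median of -0.25. Of the 10 interneuron genes the counts were 7 and 6 (median -0.34), of the 12 vascular genes 6 and 5 (-0.39), of the 10 meningeal genes 7 and 0 (-0.32), and of the 8 choroid plexus genes 3 and 0 (-1.01). Without WT libraries 1 and 4 the median of the choroid plexus genes was -0.20 and that of the meningeal genes -0.19. No listed gene of these lists was at 0 reads in any library. The summed Purkinje cell genes ranged over 7315 to 7872 CPM in the cKO and 8639 to 9164 CPM in the WT. Aldoc is made by both cell types. Of the 14 granule neuron genes, 4 were higher and 4 lower, such as Calb2 at 0.96 and Cbln3 at -0.58, both past limma. Of 12 microglial genes, Ctss was listed, at 0.41 ± 0.14 (limma, adjusted p = 0.117). Of 6 red blood cell genes, Slc4a1 was higher and Hba-a1 lower. The part of any of these cell types in the glial differences was not tested. Centring each library on its median moved every difference by -0.10, which is further below 0 for the 8 markers. These medians run over listed genes alone, 2990 higher and 2518 lower, so the shift is no check on library scaling.

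**Figure D3:**
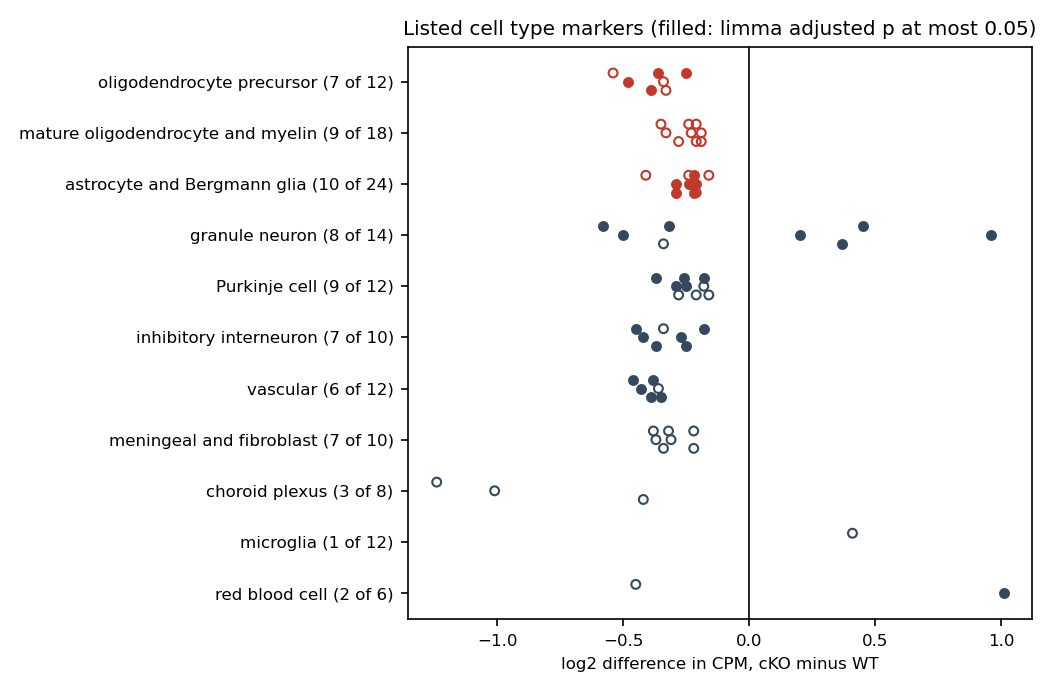
Difference (x axis, log2 CPM, cKO minus WT) of each gene listed in the cKO table, by cell type list, with the number listed of the number in the list; filled points have a limma adjusted p of at most 0.05 and red points are the 3 glial lists. All 26 glial genes lie left of 0, as do the Purkinje cell, interneuron, vascular, meningeal and choroid plexus genes, while granule neuron genes lie on both sides.

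The genes whose profile over the 8 libraries ran nearest to each marker were found by the root mean square (RMS) difference of centred log2 CPM, over 2674 or 2675 genes at or above the median abundance. Olig1 ran nearest to Kcnj10, the potassium channel of glia (0.052), Bcas1, a marker of early myelinating oligodendrocytes (0.052), and Clu (0.057). Olig2 ran nearest to Pla2g16 (0.091), Olig1 (0.093) and Bcas1 (0.097). Fa2h ran nearest to Tenm4 (0.049), Sox10 (0.064) and Abhd2 (0.070). Among these neighbours, Olig1, Bcas1 and Sox10 are genes of the oligodendrocyte lineage. The profiles span both genotypes, so a like difference between cKO and WT by itself brings genes near each other.

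Pdgfra ran nearest to Kcnip1 (0.049), Ift80 (0.055) and Ift122 (0.057). The 3 nearest to Gja1 were Thop1, Gnai1 and Cdh7 (0.023, 0.029 and 0.035), and to Slc4a4 Arhgap1, Unc80 and Pcmtd1 (0.020, 0.023 and 0.024). The genes near to Aldoc included Spns2 (0.032) and Rftn2 (0.034). Sox9 had no neighbour within 0.1: its nearest were Etl4 (0.110), Cpne2 (0.115) and Kctd13 (0.128). The RMS difference grows with a gene's own spread, so these values rank neighbours within a marker and not between markers.

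In the rotarod comparison Sox9 was the only one of the 10 markers, and of the 54 glial list genes, that the table listed. It had 5.47, 5.43, 5.55 and 5.47 log2 CPM in the rotarod libraries (columns 3, 4, 7 and 8), against 6.05, 5.98, 5.77 and 5.84 in the rest libraries (columns 1, 2, 5 and 6). All rotarod libraries lay below all rest libraries, and the rotarod libraries were the tighter (SD 0.05, against 0.13 at rest). The log2 difference of -0.43 ± 0.08, or 44.5 CPM after training against 60.2 CPM at rest, was called in the authors' deposited table (adjusted p = 9.79e-05). It missed the threshold of limma (adjusted p = 0.0597) and had the smallest exact permutation p for 4 against 4 (0.0286, two-sided). The permutation p is unadjusted and follows from the lack of overlap. The authors' table called 3.38% of features in either direction and 1.31% lower, and limma, run on listed genes alone, passed 0.201% (54 genes) as lower. All rotarod libraries lay below all rest libraries in 87% of the 353 genes it lists as lower. Sox9 had 673 to 1103 reads per library.

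Columns 1 and 2 at rest were higher for Sox9 than columns 5 and 6, and every rest value exceeded every rotarod value within either set of columns (1 to 4, and 5 to 8). Other listed genes of the lists were few. Of 10 meningeal genes, 4 were lower in the authors' deposited table and 0 passed limma, such as Slc6a13 at -0.65 ± 0.13 (limma, adjusted p = 0.0872). Their sum was 77.3 to 99.7 CPM after rotarod and 109 to 140 CPM at rest, and its part in the Sox9 difference was not tested. Gjb2, a connexin of meninges, was at -0.71 ± 0.17 (0.153), and the granule neuron gene Cbln1 at -0.42 ± 0.10 (0.13). Lrp1 was at 0.34 ± 0.13 (0.853), against -0.26 in the cKO table.

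Sox9 was thus the only marker listed in 2 tables, at -0.41 in cKO against WT and -0.43 in rotarod against rest. The WT samples of the genotype comparison and the rest samples are different libraries. The tables were normalized separately, so no level was compared across them and no test was made between the 2 differences. The rotarod and rest values of Sox9 did not overlap, and the cKO and WT values did.

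**Figure D4:**
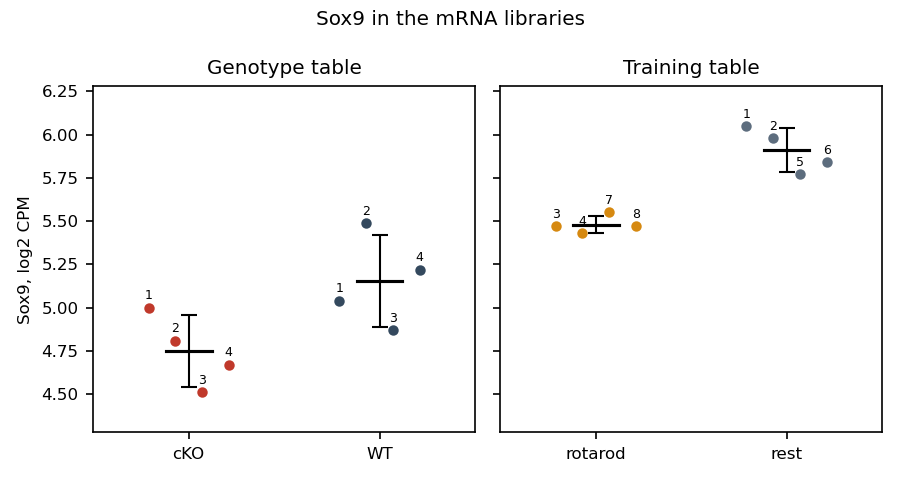
Level of Sox9 (log2 CPM, y axis) in the cKO and WT libraries (left) and in the rotarod and rest libraries (right), numbered as in labels or columns, with the mean (bar) and SD (error bar). Rotarod libraries lie between 5.43 and 5.55, below all rest libraries, while 1 cKO library lies above 1 WT library; levels are not comparable between the 2 panels.

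In the Sync-TRAP data the pull-down of cKO against the pull-down of WT listed 0 of the 10 markers and 0 of the 54 glial list genes. That table is short: the authors called 38 genes, 0.145% of the features tested. On it limma passed 0 genes, with 31 of the 38 at an unadjusted p under 0.05.

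The WT pull-down against the WT input listed Hopx and Apoc1, both lower in the pull-down. This comparison asks which RNAs the ribosome pull-down holds less of than the whole tissue at day 12. Hopx had 44.7, 30.5 and 15 CPM in pull-downs 1 to 3, against 150, 118 and 120 CPM in inputs 1 to 3. Every pull-down was below every input, and the pull-downs were spread by 0.80 log2 units (SD), against 0.19 for the inputs. The log2 difference was -2.23 ± 0.44 (SE, n = 3 each), or 78.7% lower, and was called in the authors' deposited table (adjusted p = 3.87e-06) but not by limma (adjusted p = 1). Of the 21 genes the table lists as lower, 15 had a lower log2 fold change. The authors called 0.195% of features, 0.0802% as lower, and limma, run on listed genes alone, passed 0.0115% (3 genes) as lower. Every pull-down lay below every input in 100% of the 21 genes listed as lower.

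Apoc1 had 0 reads in all 3 pull-downs, against 1.03, 0.958 and 1.98 CPM in inputs 1 to 3. A floor of 3 reads over the effective depth of 79.1 M reads of the 3 pull-downs is 0.0379 CPM. The input mean of 1.32 ± 0.57 CPM (SD) was 34.8-fold above this floor. The ratio leaves out the spread of the inputs, so it is no lower bound on the difference. The floor covers counting error in the pull-downs only. The fitted log2 difference was -4.12 ± 0.36 (SE), a size set by the deposited value of 0 reads, and the authors' log2 fold change was -8.18. The fit gave a limma adjusted p of 0.0405, past the threshold. It passed without pull-down 2 (0.00589) but missed without each of the other 5 libraries (0.175 to 0.607). The authors' deposited adjusted p was 0.0467. The exact permutation p was 0.1 for both Hopx and Apoc1, the smallest that 3 against 3 can give, and follows from the lack of overlap. In the same table Slc17a7, the vesicular glutamate transporter of granule neurons, was the only listed gene of the granule neuron list, at 1.19 ± 0.32 (limma, adjusted p = 1). No other glial list gene was listed in it, so the 2 markers are not an account of astroglial RNA as a whole.

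**Figure D5:**
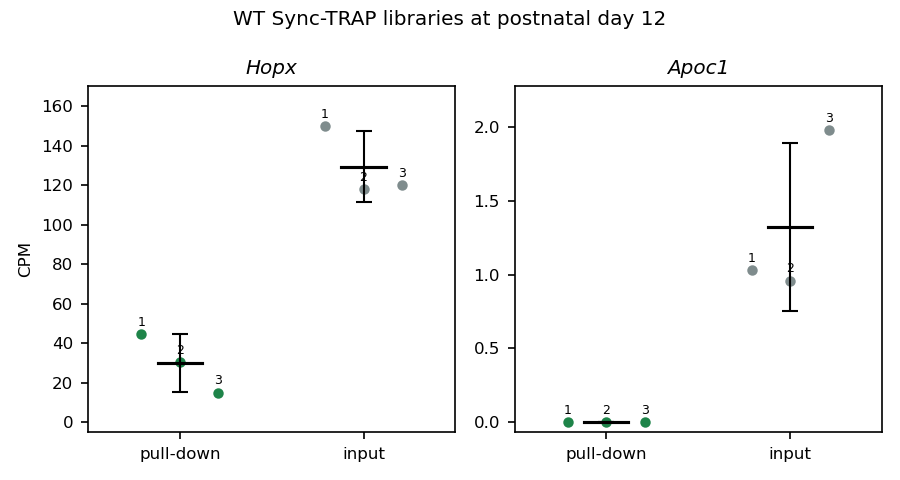
CPM (y axis) of Hopx and Apoc1 in the 3 WT pull-down and 3 WT input libraries at postnatal day 12, numbered as in their labels, with the mean (bar) and SD (error bar). Hopx was at 15 to 44.7 CPM in the pull-downs, against 118 to 150 CPM in the inputs, and Apoc1 had 0 reads in each pull-down.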

How the data were processed

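Each deposited table gives log2 CPM per library, and the authors' log2 fold change, mean abundance, likelihood ratio (a score) and raw and adjusted p-values, as the file headers say. The submitters' processing notes name Bowtie, edgeR, SICER, bedtools and build mm9. The sources used here give no version, counting tool or filter. The deposited tables list only genes with an adjusted p under 0.05, so no count model could be run and a gene that is absent has no value. The 2 region lists were not used.

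Repeated rows of a gene were removed (5557 became 5508, and 913 became 908). The number of features tested was read from the deposited p-values as adjusted p times rank over p (about 27100, 26900, 26200 and 26200). Differences, errors and adjusted p-values are from limma 3.58.1 (R 4.3.3) on all genes of a table. No covariate was used, and no pseudocount was added to the one already in the deposited log2 CPM. The p-values were adjusted by Benjamini-Hochberg for all features tested. The variance prior rests on called genes alone. The fit was run on simulated data for the cKO and rotarod comparisons only, and its outcome is not reported here. CPM is 2 to the power of the deposited log2 value, less the value of 0 reads. Effective depths come from the steps of low values (up to about 20 reads), which were whole reads within 0.1 read. Input depth was not recoverable.

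Replicates are separate samples in the labels, which do not say that each is a separate animal, so p-values measure the spread between these samples. The rotarod and rest columns show a group and a column number that matches no sample title. In the cKO comparison the deviations of same-numbered libraries correlated by 0.0846 to 0.16. Between WT pull-downs and inputs numbered 1 to 3 they correlated by 0.394, -0.000644 and 0.344. No differently numbered libraries were set beside these, so pairing was not decided, and the main fits were unpaired. With the number as a block, Hopx was at -2.23 ± 0.39 (limma, adjusted p = 0.965) and Apoc1 at -4.12 ± 0.37 (0.0404). Lists were described by counts and medians only. The markers and lists were chosen with earlier results of these data known. Named genes are the markers, the listed genes of the glial and pathway lists, up to 4 per other list, the 3 nearest profiles per marker, and Chd4. A few genes that this rule names are not reported here.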

Additional observations from a re-analysis of the deposited data

How the results depend on the processing

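All 151 alternative values of the 8 markers in the cKO table were lower in the cKO, and 0 results reversed in any table. These markers were listed because the same libraries called them lower, and some settings leave the difference unchanged. The shared direction is therefore no further support. Whether a marker passed limma depended on the setting. Against 5 markers and 10 glial list genes past limma, the counts were 8 and 16 with a variance trend, 8 and 19 with adjustment over the genes of the table alone, 0 and 0 within libraries numbered 1 and 2 or 3 and 4, and 0 and 0 without WT libraries 1 and 4, an alternative chosen after seeing the data. Centring libraries on their median, taken over listed genes alone, gave 16 glial list genes. With the replicate number as a block the counts were 1 and 5, and the numbers are not shown to pair the libraries. Leaving out 1 library gave 1 to 4 markers and 2 to 11 glial list genes. At an authors' adjusted p of at most 0.01, 3 of the 9 myelin genes remained called lower, and at a log2 fold change of at least 0.3 in size 2 myelin and 2 of the 10 astroglial genes did. Sox9 in the rotarod table passed limma with a variance trend, at or above the median abundance or adjusted over the table alone (-0.43 each), with a pseudocount of 1 CPM (-0.43) or 5 CPM (-0.40) and after centring (-0.52), and ranged over -0.48 to -0.39 without 1 library. Hopx (-2.23) passed with adjustment over the table alone. Apoc1 missed the threshold at pseudocounts of 0.1, 1 and 5 CPM (-3.76, -1.19 and -0.33), where the added value sets the size. Without 1 library it ranged over -4.30 to -3.80, where the deposited value of 0 reads sets the size. The cause of the other changes was not tested. No paired analysis by replicate number was possible for the rotarod table because its groups share no column numbers. With columns 1 to 4 and 5 to 8 as a block, chosen after seeing the data, Sox9 was at -0.43 (limma, adjusted p = 0.0667). The filter at the median abundance left no value for Olig2, Hopx or Apoc1.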
